A study of Mus musculus with 18 samples.

Results

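The genes described here encode the Fc receptors and DAP12-type signalling proteins of phagocytes, and they were followed at the level of transcription factor binding in ChIP-seq libraries. They are the 9 genes Tyrobp, Fcer1g, Syk, Fcgr1, Fcgr3, Fcgr4, Fcgr2b, Trem1 and Trem2, chosen by name from the 22367 protein-coding genes of the mm9 annotation (GENCODE vM1, in which Syk carries the older symbol Sykb). The locus of a gene was its span with 20 kb on either side, and reads were counted in it in bins of 200 bp, scaled to 10000000 reads of the library (reads per 10M). The cells were C10, a line derived from the HAFTL pre-B cell line that carries C/EBPα fused to the hormone-binding domain of the estrogen receptor (C/EBPαER). All libraries come from this 1 line, so the values are those of a line and not of primary B cells. Induced cells received β-estradiol (β-Est), which moves the fusion protein into the nucleus, together with the cytokines IL-3 and CSF-1, and control cells the solvent ethanol. Factor and cytokines therefore cannot be told apart in a comparison with 0 h. Analysed here were C/EBPα at 0 h, 10, 30 and 60 min, and 3, 12, 24 and 48 h after induction, and C/EBPβ and PU.1 at 0, 3, 12, 24 and 48 h. Each factor and time is 1 library, so no test between times was possible. Every interval of reads or of a ratio of reads given below covers counting error only.

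Fc receptors bind the constant part of antibodies on the surface of phagocytes and B cells. Most of them, and the TREM receptors, have no signalling motif of their own and pair with a small adaptor, the Fc receptor γ chain encoded by Fcer1g or DAP12 encoded by Tyrobp. These adaptors carry an immunoreceptor tyrosine-based activation motif (ITAM), which Src family kinases phosphorylate and which then recruits the kinase Syk. Fcgr2b is the inhibitory exception, since its tail recruits phosphatases and dampens signals from Fc receptors and from the B cell receptor. Syk and Fcgr2b are used by B cells as well as macrophages, while the DAP12 and γ chain adaptors and the activating receptors are known mainly from myeloid and natural killer cells. PU.1 is an Ets family factor of both lineages, and C/EBPα and C/EBPβ are leucine zipper factors of the myeloid lineage.

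A bound site is a group of called regions whose centres lay within 200 bp of one another in any of the libraries. The 9 loci held 108 such sites of 122684 in the genome. Each site is named by its gene and the distance in kb from the annotated start of that gene, so that Tyrobp-1.0kb lies upstream and Tyrobp+6.7kb downstream. Site values are reads per 10M in a window of 200 bp, centred on the called region of the site with the most reads per 10M in any library. The window thus lies where 1 library was highest, which favours that library in a ratio. Because centres within 200 bp form 1 site, a factor can be called at a site while most of its reads lie beside the window. A site is listed because it was called in at least 1 library, so a fold between times at a site called only late was fixed in part by that choice and is a description. The nearest start site was that of one of the 9 genes for 81 sites and of another gene for 27, such as Hcst beside Tyrobp and histone genes beside Fcgr1. Between the annotations, 62 sites were intergenic, 31 intronic and 15 in an exon or UTR.

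For Tyrobp, Fcer1g, Fcgr2b, Fcgr3, Fcgr4 and Trem2, the sequence of the C/EBPα site with the most C/EBPα reads in the locus is shown because the time courses below turn on these sites. The sequences are mm9 plus strand, with annotated exons cut off, and capitals mark TTNCNNAA (a relaxed form of the C/EBP palindrome, searched on both strands, which includes every TTGCNNAA) and GAGGAA (the PU.1 core, searched on both strands, which includes every GAGGAAGT). The positions are chr7:31184751-31184950, chr1:173163284-173163483, chr1:172883449-172883648, chr1:172989535-172989662, chr1:172948037-172948236, and chr17:48485666-48485725, in the order of the lines.
Tyrobp-14.0kb: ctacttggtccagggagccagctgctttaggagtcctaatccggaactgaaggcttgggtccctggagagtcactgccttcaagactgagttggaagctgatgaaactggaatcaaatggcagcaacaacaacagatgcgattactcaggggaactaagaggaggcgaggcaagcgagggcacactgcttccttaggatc
Fcer1g+1.1kb: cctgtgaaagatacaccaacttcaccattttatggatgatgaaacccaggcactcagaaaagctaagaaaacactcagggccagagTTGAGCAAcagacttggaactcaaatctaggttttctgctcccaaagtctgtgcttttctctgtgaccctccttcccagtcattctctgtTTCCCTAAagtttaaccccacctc
Fcgr2b+23.1kb: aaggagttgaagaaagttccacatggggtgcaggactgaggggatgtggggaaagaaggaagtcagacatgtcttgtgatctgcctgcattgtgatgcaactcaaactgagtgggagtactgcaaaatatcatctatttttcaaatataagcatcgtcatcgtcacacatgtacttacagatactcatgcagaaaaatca
Fcgr3+5.5kb: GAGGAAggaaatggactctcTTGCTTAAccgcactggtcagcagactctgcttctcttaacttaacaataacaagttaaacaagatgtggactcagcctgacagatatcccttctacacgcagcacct
Fcgr4-0.9kb: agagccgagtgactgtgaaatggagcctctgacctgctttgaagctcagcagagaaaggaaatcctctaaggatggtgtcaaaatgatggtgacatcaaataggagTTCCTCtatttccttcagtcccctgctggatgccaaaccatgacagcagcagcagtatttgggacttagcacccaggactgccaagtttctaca
Trem2+0.0kb: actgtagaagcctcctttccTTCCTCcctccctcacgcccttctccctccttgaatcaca

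A further set was chosen after its values were seen, because C/EBPα and PU.1 were both called there. It holds the upstream site of Tyrobp, the site at the start of Fcgr1 and the PU.1 site beside Syk-11.0kb, at chr7:31197753-31197952, chr3:96097893-96098059 and chr13:52667947-52668146.
Tyrobp-1.0kb: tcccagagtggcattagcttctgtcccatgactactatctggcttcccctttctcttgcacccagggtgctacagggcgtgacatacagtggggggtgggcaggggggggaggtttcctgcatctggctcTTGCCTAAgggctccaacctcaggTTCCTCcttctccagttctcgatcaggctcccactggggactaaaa
Fcgr1+0.2kb: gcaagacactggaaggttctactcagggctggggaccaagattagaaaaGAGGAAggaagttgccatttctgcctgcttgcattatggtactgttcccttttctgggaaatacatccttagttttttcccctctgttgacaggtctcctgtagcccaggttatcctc
Syk-10.5kb: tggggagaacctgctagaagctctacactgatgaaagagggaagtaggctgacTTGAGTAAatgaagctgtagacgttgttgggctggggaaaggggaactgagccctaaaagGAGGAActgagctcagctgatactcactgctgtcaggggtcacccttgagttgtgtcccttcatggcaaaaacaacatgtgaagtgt

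The 200-bp windows of Tyrobp-14.0kb, Fcgr2b+23.1kb and Fcgr4-0.9kb, the sites with the most C/EBPα reads of their loci, held no TTNCNNAA. Among the printed stretches TTGCNNAA was present in those of Tyrobp-1.0kb, Fcer1g+1.1kb and Fcgr3+5.5kb, and the whole window of Trem2+0.0kb held 2 matches in the part not printed. Over all 58 sites of C/EBPα in the loci, 33 held TTNCNNAA (56.9%, against 58.6% of all C/EBPα sites) and 14 held TTGCNNAA (24.1%, against 29.1%). TTNCNNAA was also found in 40 of the 71 sites of PU.1 (56.3%, against 39.8% of all PU.1 sites) and in 65 of all 108 sites (60.2%, against 45.6%). Over the 71 sites of PU.1, 37 held GAGGAA (52.1%, against 53.8%) and 14 held GAGGAAGT (19.7%, against 23.1%). The shares at C/EBPα sites and those of the PU.1 motifs lie near the background. A match describes letters in a window and does not make it a binding site.

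C/EBPα was called at 58 of the 108 sites at some time (53.7%, against 37.8% of all bound sites), C/EBPβ at 40 (37.0%, against 14.3%) and PU.1 at 71 (65.7%, against 74.7%). All 3 factors were called at 17 sites (15.7%, against 6.22%), and PU.1 alone at 42 (38.9%, against 59.2%). C/EBPα was first called at 0 h at 2 of the 58 sites (4.84% of all C/EBPα sites), at 10 min at 21 (36.2%, against 20%), at 30 min at 8 (13.8%, against 21.9%) and at 60 min at 9 (15.5%, against 25.5%). It was first called at 3 h at 7 sites (14.4% of all C/EBPα sites), at 12 h at 8 (7.64%), at 24 h at 0 (3.39%) and at 48 h at 3 (2.35%). The library of 10 min is the deepest, and at equal depth 8 sites of the loci were called at that time in place of 22. At 48 h 21 of the 58 C/EBPα sites were called, which is 36.2% (95% Clopper-Pearson interval 24.0 to 49.9), against 18.7% of all C/EBPα sites. This interval and those of the shares below take sites as independent, although they lie together in the chosen loci, and they test no difference. Of those 21 sites, 19 also had C/EBPβ at 48 h (90.5%, 69.6 to 98.8, against 72.4%), although C/EBPβ calls at 48 h depend on depth, with 16 sites in place of 35 when its libraries were thinned to the smallest. PU.1 was called in the same site at 0 h at 6 of the 21 (28.6%, 11.3 to 52.2, against 32.7%). By 60 min 14 of the 21 had been called for C/EBPα (66.7%, against 66.8%). Within 1000 bp, PU.1 was called at 0 h beside 10 of the 21 (47.6%, against 40.6%). At 11 C/EBPα sites the calls were confined to 10, 30 or 60 min (19.0%, against 31.7%). The libraries of these times are the deepest of C/EBPα, which favours such calls, and the share was not computed at equal depth. At 27 sites both C/EBPα and PU.1 were called, 13 of them with PU.1 at 0 h (48.1%, against 51.8%), with PU.1 first in 17 (63.0%, against 53.9%), C/EBPα first in 7 (25.9%, against 35.4%) and both first at the same time in 3 (11.1%, against 10.8%). PU.1 and C/EBPβ between 0 and 3 h were not analysed here, so the order of the factors within that gap is unknown.

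A C/EBPα site was present in 2 of the 9 loci at 0 h (10.9% of all loci), in 7 at 10 min (30.2%), in 7 at 3 h (47.3%) and in 7 at 48 h (30.8%), the loci without one at 48 h being Fcer1g and Trem1. C/EBPβ was called in 2 loci at 0 h (2.98%) and in all but Trem1, that is 8, at 48 h (39.7%), and PU.1 in 7 at 0 h (63.9%) and in 9 at 48 h (70.2%). The 9 loci held on average 2.33 C/EBPα sites at 48 h and 5.67 PU.1 sites, against 0.45 and 2.31 over 18656 loci of comparable length. The libraries differ in depth, and held between 5970869 and 24917810 reads (C/EBPα), 2903580 and 5844202 (C/EBPβ) or 6575348 and 11349746 (PU.1), the deepest being C/EBPα at 10 min. With the libraries of each factor thinned to the smallest, C/EBPα was called at 4, 8, 17, 21, 22, 31, 19 and 20 sites of the loci from 0 h to 48 h. Over the genome the numbers at equal depth were 2229, 3933, 12648, 14799, 17246, 13831, 9547 and 7863, so at equal depth the loci had the most at 12 h and the genome at 3 h. At full depth both had the most at 60 min, with 34 sites in the loci and 28864 in the genome, and the loci had 33 at 3 h and 30 at 12 h. C/EBPα at 10, 30 and 60 min was also read on another sequencer with longer reads (50 in place of 36 bases), and this cannot be told apart from those times.

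**Figure D1:**
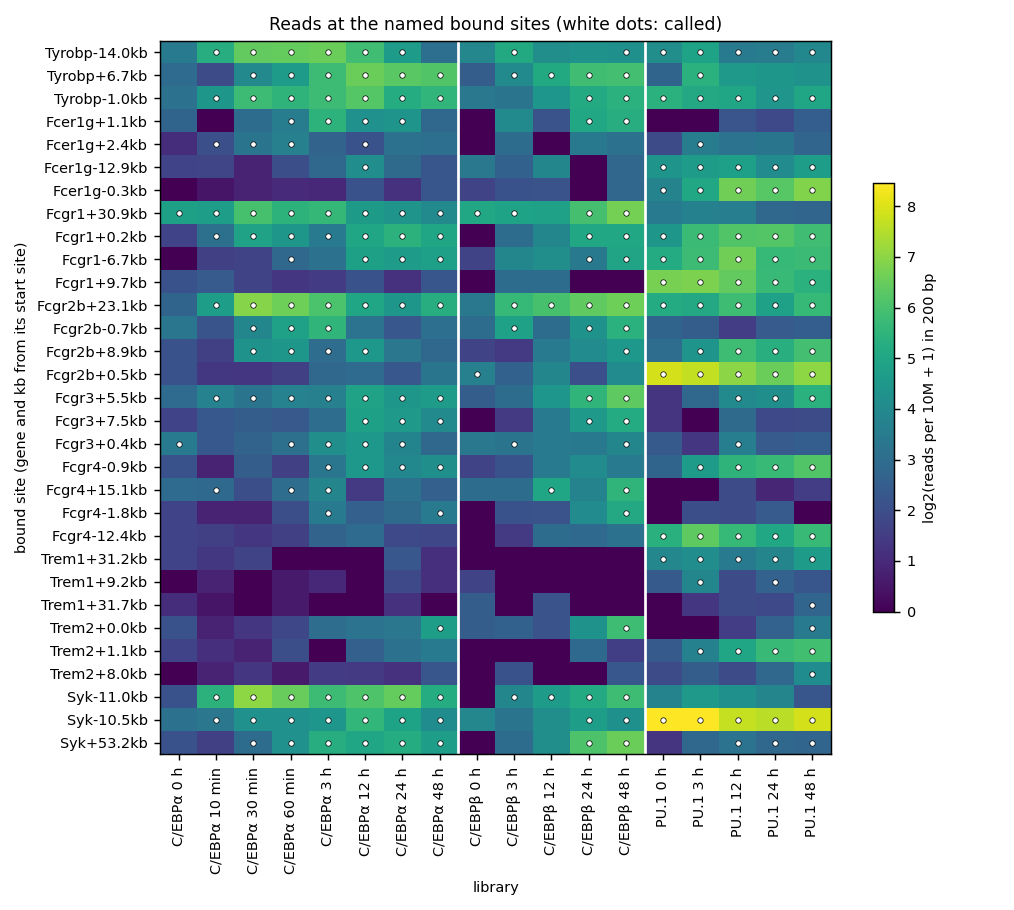
Reads per 10M (log2 after adding 1) in the 200-bp window of the named sites (rows) in the 18 libraries (columns, 1 library each), with white dots where a region was called. Syk-10.5kb and Fcgr2b+0.5kb are the brightest PU.1 rows at 0 h, with 346 and 241 reads per 10M, and the 3 Trem1 rows carry no C/EBP dot.

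Tyrobp (chr7:31198807-31202596, plus strand), the gene of the DAP12 adaptor, had 17 sites, of which 11 were called for C/EBPα, 8 for C/EBPβ and 10 for PU.1. At Tyrobp-1.0kb, C/EBPα had 7.89 reads per 10M at 0 h, 21.3 at 10 min, 53.8 at 30 min, 44.0 at 60 min, 54.8 at 3 h, 73.7 at 12 h, 36.9 at 24 h and 46.5 at 48 h. PU.1 was called there at all 5 times, with 41.1, 33.5, 30.8, 20.3 and 30.6, and C/EBPβ went from 9.34 at 0 h to 41.4 at 48 h. C/EBPα was thus added from 10 min on to a site where PU.1 was already called, and it was 5.89-fold higher at 48 h than at 0 h (95% counting interval 2.59 to 15.7). The C/EBPα site with the most reads, Tyrobp-14.0kb, had another course, with 10.1 at 0 h, 37.3 at 10 min, 84.6 at 30 min, 86.0 at 60 min, 93.4 at 3 h, 56.9 at 12 h, 23.7 at 24 h and 7.54 at 48 h, where it was no longer called. Tyrobp+6.7kb had its high values later and lies at -594 bp from the start of Hcst, the gene of the sister adaptor DAP10. Its C/EBPα values were 6.77, 2.81, 14.6, 24.1, 54.8, 93.8, 76.5 and 70.4 in order of time, and its C/EBPβ values 4.67, 15.4, 34.4, 57.6 and 59.1.

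PU.1 over Tyrobp fell into sites with steady and with later binding, described here after their values were seen. At Tyrobp-19.2kb PU.1 stood at 153, 138, 113, 126 and 140 from 0 to 48 h, where C/EBPα was called at all 7 times after induction, and at Tyrobp+5.9kb, in an exon of Hcst, at 96.4, 97.3, 103, 83.7 and 96.5. At the start of Tyrobp itself (Tyrobp-0.0kb, at -15 bp) PU.1 was 4.25 at 0 h, 15.2 at 3 h, 90.5 at 12 h, 73.1 at 24 h and 68.8 at 48 h, and no region of a C/EBP factor was called there. The ratio of 48 h to 0 h at this site was 16.2 (5.32 to 80.3). PU.1 at the promoter and C/EBPα at Tyrobp-1.0kb thus lay at different sites, and both had their highest value at 12 h.

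**Figure D2:**
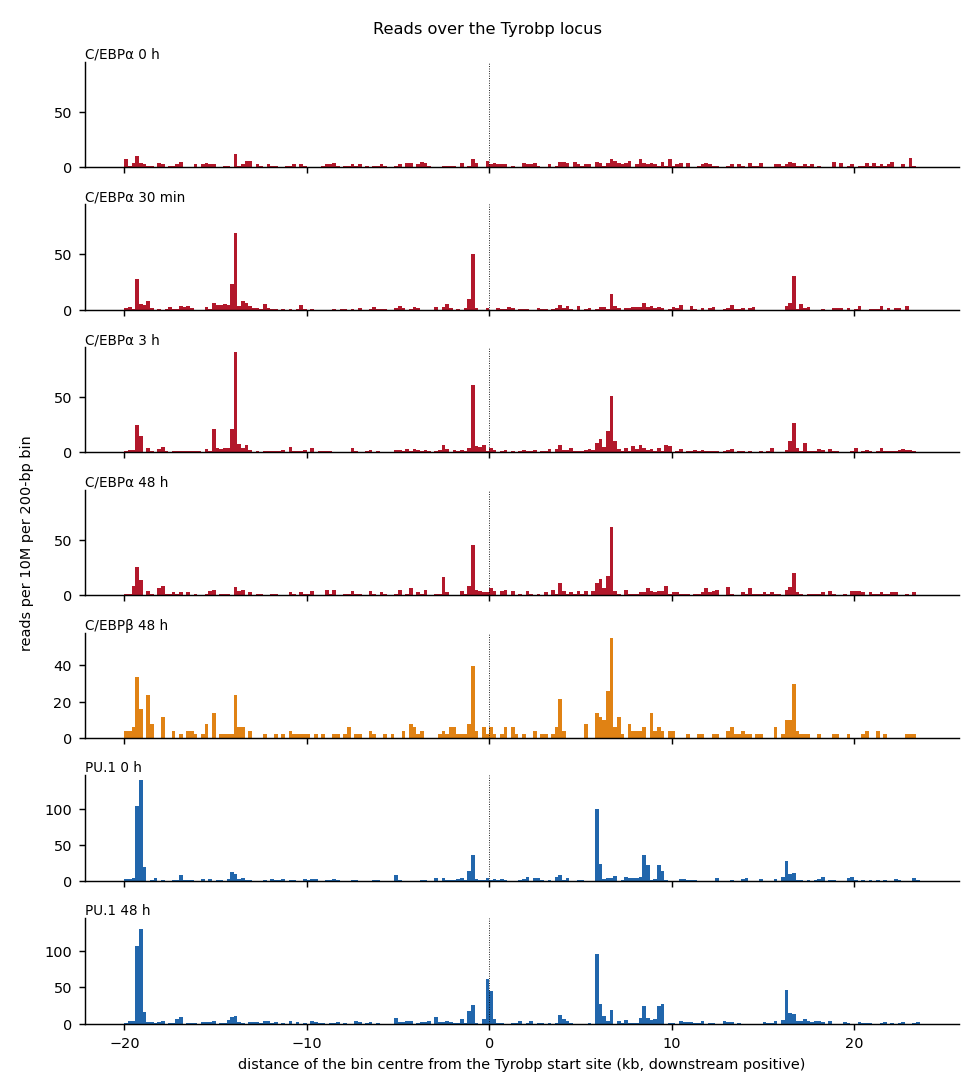
Reads per 10M in 200-bp bins over the Tyrobp locus by distance from the start site (kb), in 7 libraries, with 1 vertical scale per factor. C/EBPα at Tyrobp-14.0kb is high at 30 min and 3 h and at 7.54 reads per 10M at 48 h, near its 10.1 at 0 h, and PU.1 at the start site is at 4.25 at 0 h and 68.8 at 48 h.

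Fcer1g (chr1:173159703-173164496, minus strand) encodes the γ chain adaptor and had 10 sites, 9 of them called for PU.1 and 3 for C/EBPα. At Fcer1g+1.1kb, in an intron, C/EBPα had 5.64 at 0 h, 0 at 10 min (which allows up to 1.20), 6.92 at 30 min, 10.7 at 60 min, 43.1 at 3 h, 18.4 at 12 h, 19.8 at 24 h and 6.28 at 48 h. C/EBPβ had 0 there at 0 h (up to 7.004 allowed), 15.4 at 3 h, 3.44 at 12 h, 32.0 at 24 h and 37.4 at 48 h. C/EBPα was highest at 3 h, was called from 60 min to 24 h and was uncalled at 48 h. C/EBPβ was called at 24 and 48 h, so both factors were called at 24 h. The C/EBPβ values at 24 and 48 h rest on 10 and 19 reads. Fcer1g+2.4kb, the next intronic site, stayed between 1.13 and 11.8 for C/EBPα. At the promoter site Fcer1g-0.3kb, PU.1 had 12.8 at 0 h, 31.9 at 3 h, 98.0 at 12 h, 75.8 at 24 h and 114 at 48 h, which is 8.91-fold higher at 48 h than at 0 h (4.54 to 19.96). C/EBPα was not called at this promoter and stayed at or below 3.77.

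Syk (chr13:52678542-52744161, plus strand), the kinase that both adaptors recruit, had 25 sites over the longest of the 9 loci, and all of them had a start site of Syk as their nearest. That is 23.7 sites per 100 kb, the fourth highest of the 9 loci, which ran from 5.54 for Trem1 to 38.8 for Tyrobp. C/EBPα at Syk-11.0kb had 3.38 at 0 h, 41.7 at 10 min, 127 at 30 min, 89.6 at 60 min, 54.8 at 3 h, 68.7 at 12 h, 85.7 at 24 h and 36.4 at 48 h. C/EBPβ had 0 there at 0 h (up to 7.004 allowed), then 13.7, 24.1, 35.2 and 55.2. PU.1 was never called at this site and lay between 3.82 and 22.8, a range that overlaps those of called PU.1 sites. The neighbouring Syk-10.5kb, about 500 bp away, was the strongest PU.1 site of the 9 loci, with 346, 348, 206, 190 and 238 reads per 10M. PU.1 there was 0.688-fold at 48 h of its value at 0 h (0.574 to 0.824). C/EBPα at the same window was 7.89 at 0 h, 46.9 at 12 h and 16.3 at 48 h, and it was called there at all 7 times after induction. Upstream of Syk, C/EBPα was thus called both at the PU.1 site and at a neighbouring site with no PU.1 call.

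Sites within the Syk gene separated by time. Syk+17.2kb, an intronic site, had C/EBPα values of 1.13 at 0 h, 19.3 at 10 min, 54.6 at 30 min, 34.3 at 60 min, 8.99 at 3 h, 1.67 at 12 h, 1.32 at 24 h and 1.26 at 48 h, and PU.1 was not called there. Syk+1.7kb had a like early course, with 27.7 at 30 min and 2.51 at 48 h. Syk+32.0kb showed the opposite order, with C/EBPα at 1.13, 1.61, 3.08, 0, 8.09, 28.5, 38.2 and 26.4, where the 0 at 60 min allows up to 1.54. PU.1 at Syk+32.0kb was 8.51, 15.2, 60.7, 58.2 and 74.5, and C/EBPβ 2.33, 1.71, 27.6, 35.2 and 69.0, so that all 3 factors were higher at 12 to 48 h than at 0 h. PU.1 there was 8.76-fold higher at 48 h (3.85 to 24.6). Syk+53.2kb had C/EBPα at 3.38 at 0 h, 37.7 at 3 h and 25.1 at 48 h and C/EBPβ at 0 and then 92.6 at 48 h, with PU.1 at or below 8.40 in the window. A low value in the window does not mean that PU.1 was uncalled at the site, since its reads can lie beside the window. These sites, apart from Syk+53.2kb and the upstream pair, were named after their values were seen.

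**Figure D3:**
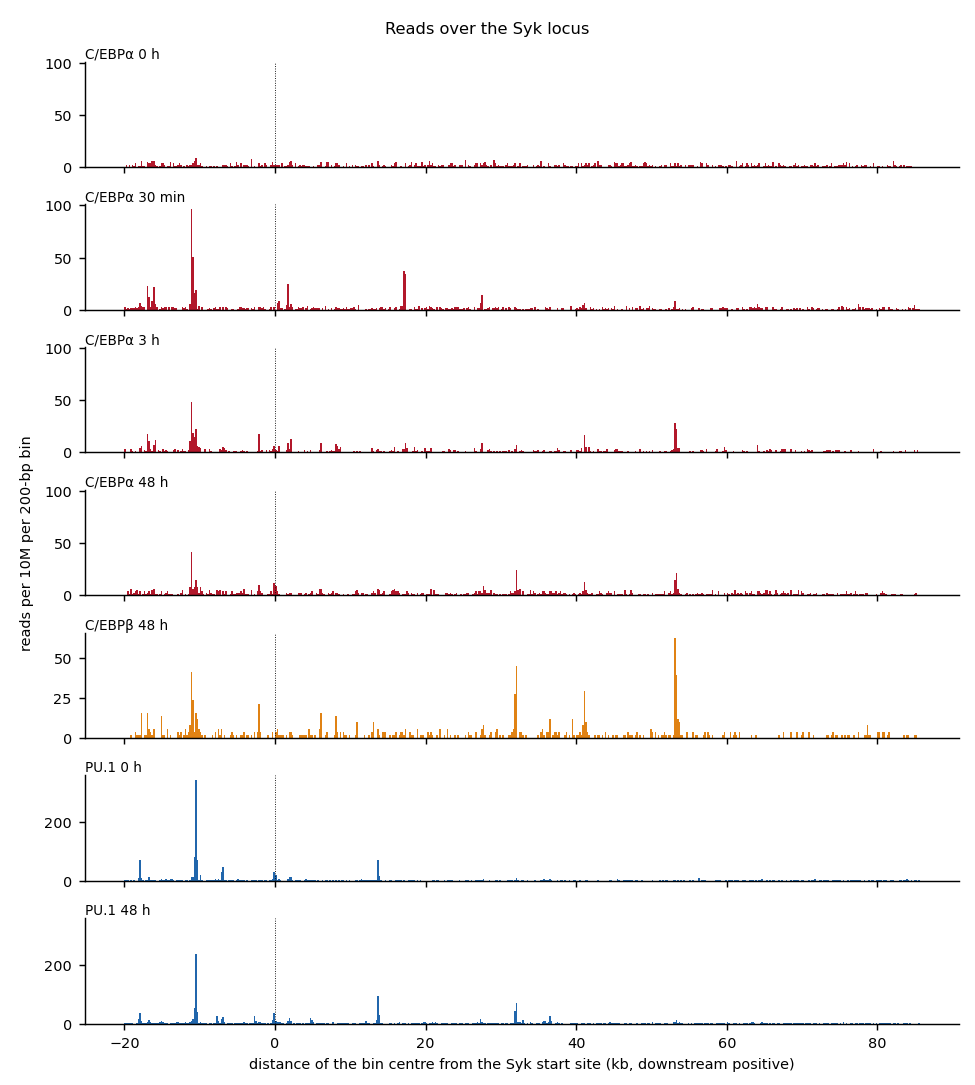
Reads per 10M in 200-bp bins over the Syk locus by distance from the annotated start (kb), in 7 libraries, with 1 vertical scale per factor. The C/EBPα peak of Syk-11.0kb stands at 30 min next to the PU.1 peak of Syk-10.5kb, and that of Syk+17.2kb is at 8.99 by 3 h, while C/EBPβ is at 92.6 at Syk+53.2kb at 48 h.

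Fcgr1 (chr3:96086832-96098179, minus strand), the high-affinity IgG receptor that signals through the γ chain, had 16 sites. At Fcgr1+0.2kb, at the gene start, C/EBPα was 2.26 at 0 h, 7.63 at 10 min, 28.5 at 30 min, 21.0 at 60 min, 9.88 at 3 h, 30.1 at 12 h, 42.2 at 24 h and 30.2 at 48 h. PU.1 was called there at all 5 times, with 21.3, 53.2, 70.9, 71.4 and 56.4, and C/EBPβ went from 0 at 0 h to 31.5 at 48 h. C/EBPα was 13.4-fold higher at 48 h than at 0 h (3.32 to 117), an interval that rests on 2 reads at 0 h. Fcgr1-6.7kb had C/EBPα at 0 at 0 h (up to 3.38 allowed), 2.01, 2.31, 6.14, 8.09, 26.8, 23.7 and 26.4, and PU.1 at 35.5, 54.7, 98.0, 49.3 and 52.6. Both sites had PU.1 called at 0 h and C/EBPα called at 12, 24 and 48 h. At Fcgr1+9.7kb, in an exon, PU.1 was 104 at 0 h, 108 at 3 h, 84.0 at 12 h, 52.0 at 24 h and 41.1 at 48 h (0.397-fold of 0 h, 0.266 to 0.586), with no C/EBP call. The site with the most C/EBPα reads, Fcgr1+30.9kb, lies at -91 bp from the start of the histone gene Hist2h4 and was the only site of the 9 loci called for C/EBPα at all 8 times, with 27.1 at 0 h, 63.1 at 30 min and 15.1 at 48 h.

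Fcgr3 (chr1:172981300-172995066, minus strand) and Fcgr4 (chr1:172949051-172959892, plus strand), which encode activating receptors, lie next to each other and their loci share 2 sites. At Fcgr3+5.5kb C/EBPα had 6.77, 12.4, 8.46, 12.3, 11.7, 28.5, 21.1 and 23.9 in order of time, C/EBPβ 4.67, 6.84, 20.7, 44.8 and 80.8, and PU.1 1.42, 6.08, 14.9, 17.6 and 41.1. All 3 factors were higher at 48 h than at 0 h by more than counting error. C/EBPβ was 17.3-fold higher (4.49 to 148) and PU.1 29.0-fold (4.93 to 1171), the latter from 1 read at 0 h. C/EBPβ was called there at 24 and 48 h only and PU.1 from 12 h on, which favours such folds. Fcgr3+7.5kb followed for C/EBPα (2.26 at 0 h, 26.8 at 12 h and 15.1 at 48 h) and C/EBPβ (0 at 0 h and 35.5 at 48 h) without a PU.1 call. At Fcgr4-0.9kb C/EBPα was called from 3 h on, with 3.38 at 0 h, 8.99 at 3 h, 21.8 at 12 h, 14.5 at 24 h and 17.6 at 48 h. PU.1 there was 5.67, 24.3, 43.9, 51.1 and 69.8, or 12.3-fold higher at 48 h (4.60 to 46.3). Fcgr4-12.4kb had PU.1 alone, with 39.7 at 0 h, 80.6 at 3 h and 51.6 at 48 h. The values at Fcgr4+15.1kb and Fcgr4-1.8kb stayed at or below 13.5 for C/EBPα, with C/EBPβ at 45.3 and 33.5 at 48 h.

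Part of the Fcgr3 locus could not be read. Only 59.9% of the positions of the Fcgr3 locus gave a 36-base read found once in the genome, against 78.5% for Fcgr2b, 77.9% for Trem1, 87.3% for Fcgr1 and 92.1% to 97.4% for the other 5. The windows of Fcgr3+5.5kb and Fcgr3+7.5kb were unique at every position, but that of Fcgr3+0.4kb at 24.0%. Fcgr3+0.4kb had C/EBPα at 10.1 at 0 h, 21.8 at 12 h and 6.28 at 48 h. Because the authors kept uniquely aligned reads only, reads from repeated positions are missing there, and sites in such stretches cannot be seen.

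Fcgr2b (chr1:172890689-172906678, minus strand), the inhibitory receptor that B cells also carry, had 18 sites. Its promoter site Fcgr2b+0.5kb, 45 bp from a start site, was a PU.1 site, with 241 at 0 h, 201 at 3 h, 125 at 12 h, 93.4 at 24 h and 129 at 48 h. PU.1 at 48 h was 0.535-fold of 0 h (0.424 to 0.675), and C/EBPα was not called there. Downstream of the gene, Fcgr2b+23.1kb was high early for C/EBPα, with 5.64, 25.3, 119, 95.2, 65.6, 30.1, 21.1 and 37.7. C/EBPβ there had 9.34, 49.6, 62.0, 83.2 and 94.6, and PU.1 was called at all 5 times, with 35.5, 33.5, 55.1, 27.3 and 49.7. Of the times analysed, C/EBPα was highest at 30 min and C/EBPβ at 48 h. C/EBPβ had no library between 0 and 3 h and was called from 3 h on, so the 2 courses cannot be set in order. Its values at 24 and 48 h rest on 26 and 48 reads. Fcgr2b-0.7kb had C/EBPα at 44.9 at 3 h and 7.54 at 48 h and C/EBPβ at 41.4 at 48 h. Fcgr2b+8.9kb, an intronic site, had PU.1 at 7.09 at 0 h and 59.2 at 48 h (8.36-fold, 3.39 to 26.6) and C/EBPα between 2.01 and 21.8.

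Trem2 (chr17:48485726-48493472, plus strand), a DAP12-paired receptor of macrophages, had 5 sites, of which 1 was called for C/EBPα. Trem2+0.0kb, at the start site, had C/EBPα at 3.38, 0.803, 1.54, 2.56, 7.19, 8.37, 9.23 and 25.1, and it was called at 48 h only. C/EBPβ there was 4.67, 5.13, 3.44, 19.2 and 55.2, and PU.1 reached 10.5 at 48 h. C/EBPα at 48 h was 7.43-fold of 0 h (2.20 to 39.0) and C/EBPβ 11.8-fold (2.98 to 102), but the site is listed only through its calls at 48 h, which favours such folds. Trem2+1.1kb, in an exon, had PU.1 at 4.25, 12.2, 30.8, 50.2 and 58.3, a 13.7-fold difference (4.47 to 68.3), and no C/EBP call. Trem2+8.0kb was called for PU.1 at 48 h only, with 16.2.

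Trem1 (chr17:48371903-48386091, plus strand), a DAP12-paired receptor of neutrophils and monocytes, stood apart by having no C/EBPα or C/EBPβ region at any time. Its locus held 3 PU.1 sites, and none of them had a start site of Trem1 as its nearest. Trem1+31.2kb, at -541 bp from the start of Treml4, had PU.1 at 14.2, 16.7, 10.3, 13.2 and 23.9. Trem1+31.7kb and Trem1+9.2kb stayed at or below 13.7 for PU.1. With 77.9% of its positions unique, most of the locus could be seen. Over all 54.2 kb C/EBPα reads did not differ detectably between 0 and 48 h (log2 ratio 0.04, -0.27 to 0.34).

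**Figure D4:**
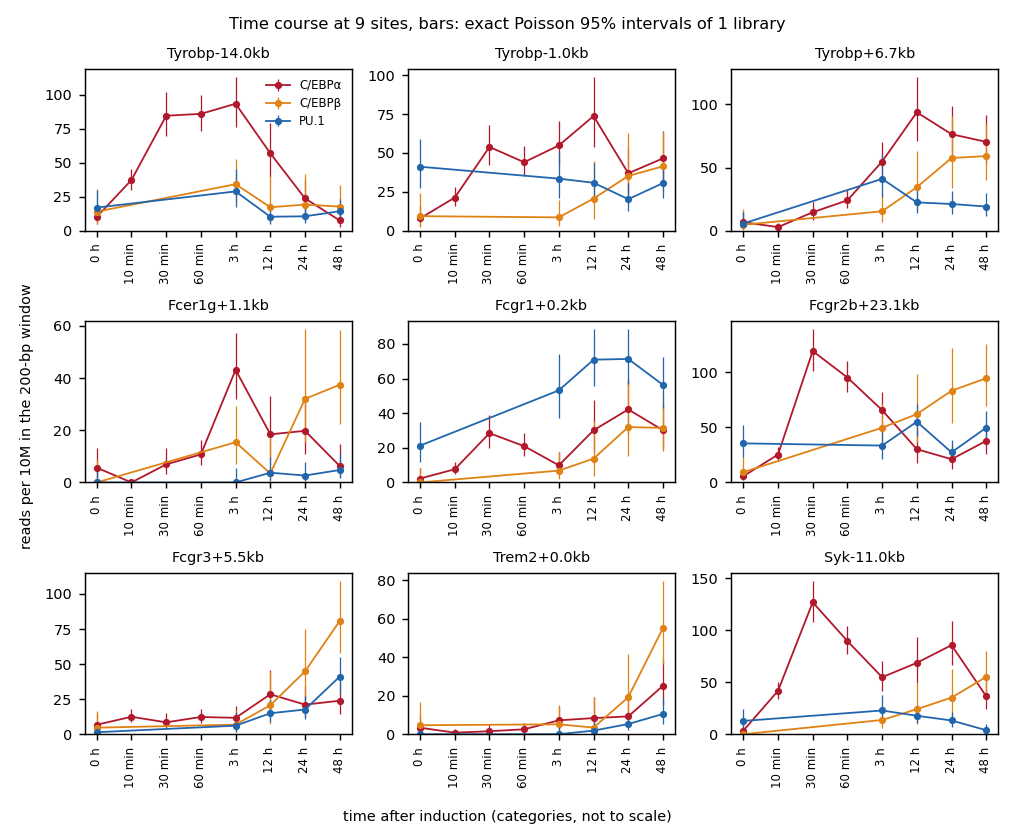
Reads per 10M in the 200-bp window against time (in order, not to scale) at 9 sites, for C/EBPα, C/EBPβ and PU.1, with exact Poisson 95% intervals of each single library. C/EBPα is highest by 3 h at Tyrobp-14.0kb, Fcgr2b+23.1kb, Fcer1g+1.1kb and Syk-11.0kb and at 48 h at Trem2+0.0kb.

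The strong PU.1 sites of the loci followed different courses, in groups formed after the values were seen. Of the 4 sites with the most PU.1 at 0 h, Syk-10.5kb, Fcgr2b+0.5kb and Fcgr1+9.7kb had less at 48 h, and Tyrobp-19.2kb had 140 against 153. PU.1 at Tyrobp-0.0kb, Fcer1g-0.3kb, Fcgr4-0.9kb and Trem2+1.1kb was at most 12.8 at 0 h and between 58.3 and 114 at 48 h. Counted over all 108 sites, the counting interval of the ratio of 48 h to 0 h lay above 1 at 18 sites for PU.1 (10.7% of all bound sites) and below 1 at 6 (8.31%). For C/EBPα the numbers were 16 (6.67%) and 0 (0.54%), and for C/EBPβ 25 (9.07%) and 0 (0.2%). Of the 30 sites with PU.1 at 0 h, 26 were called at 48 h (86.7%, 69.3 to 96.2, against 73.4%), and 25 of the 51 PU.1 sites of 48 h were not called at 0 h (49.0%, against 50.4%).

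Counted over the whole locus rather than at sites, the difference between 0 and 48 h was smaller. The median log2 ratio of 48 h to 0 h over the 9 loci was 0.36 for C/EBPα, 0.44 for C/EBPβ and 0.42 for PU.1, against 0.01, -0.05 and -0.01 over all loci. C/EBPα ratios ran from 0.04 (Trem1) to 0.70 (Tyrobp, 0.51 to 0.90), and 8 of the 9 intervals lay above 0 (14.4% of all loci), Trem1 being the exception. For C/EBPβ 6 intervals lay above 0 (14.6%), those of Fcer1g, Fcgr1 and Trem1 including 0, and for PU.1 6 (19.9%), those of Fcgr1, Fcgr2b and Syk including 0. None of the 9 intervals lay below 0 for C/EBPα (8.82% of all loci), C/EBPβ (15.4%) or PU.1 (20.7%). C/EBPβ ran from -0.17 (Trem1, -0.60 to 0.27) to 0.66 (Fcgr3, 0.33 to 0.99). PU.1 ran from 0.08 (Fcgr2b, -0.08 to 0.24) to 0.87 (Trem2, 0.58 to 1.17). A ratio of at least 1.5-fold was reached by 1 locus for C/EBPα (2.48% of all loci), 2 for C/EBPβ (6.54%) and 1 for PU.1 (4.87%).

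**Figure D5:**
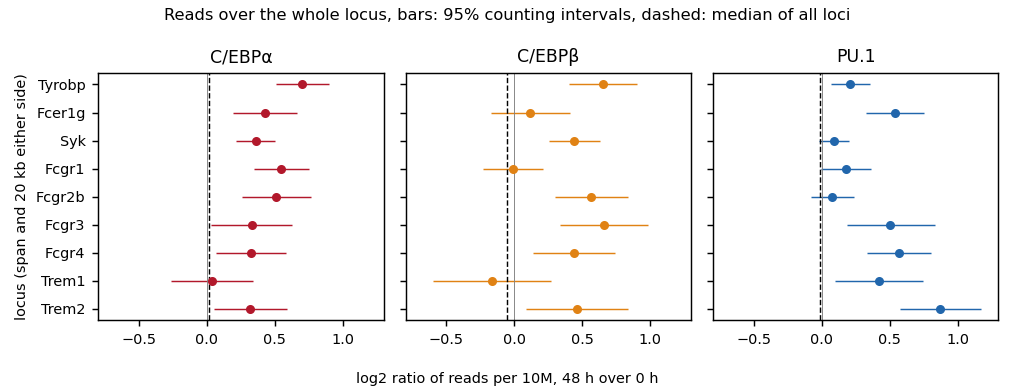
Log2 ratio of reads per 10M over the locus at 48 h and 0 h for the 9 genes, for C/EBPα, C/EBPβ and PU.1, with 95% counting intervals, a dashed line at the median of all loci and a grey line at 0. The intervals of Trem1 include 0 for both C/EBP factors, and Trem2 is highest for PU.1 at 0.87.

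Other genes of the pathway were counted from 5 lists of 48 genes in all, of which Hcst, Treml1 and Treml4 lie wholly or partly within the Tyrobp, Trem2 and Trem1 loci and share sites with them. A C/EBPα site was present in 33 of the 48 loci at 3 h (47.3% of all loci) and in 29 at 48 h (30.8%). A C/EBPβ site at 48 h was present in 35 (39.7%), a PU.1 site at 0 h in 38 (63.9%) and at 48 h in 41 (70.2%). Among the kinases, adaptors and effectors downstream of an ITAM, 10 of 13 loci had C/EBPα at 48 h and 13 of 13 had PU.1 at 0 h, with Plcg2 (phospholipase Cγ2) and Lyn (a Src family kinase) at 5 C/EBPα sites each. These loci are also longer, at 177 kb and 175 kb. In a list of Hcst itself with receptors of the DAP12, DAP10 and γ chain adaptors and their relatives, such as Treml1 and Treml2, whose pairing was not checked here, 8 of 14 had C/EBPα at 48 h, with Cd300lb at 5 sites and Clec4n (Dectin-2) at 4. Pira2, counted there as without C/EBPα, had only 9.02 C/EBPα reads per 10M over its locus at 0 h and 6.28 at 48 h. A site in that locus could have been missed. Among other Fc receptors and their relatives 4 of 9 had C/EBPα at 48 h, with Fcrla at 3 sites and Fcer2a (CD23) at 2. Among inhibitory receptors and phosphatases 5 of 8 had it, with Sirpa at 5 sites and Inpp5d (the phosphatase SHIP1) at 3. In a list of ITAM chains of B and T cells that also holds the kinase Zap70, 2 of 4 had it. These were Cd79a (Igα of the B cell receptor) at 2 sites and Cd247 (the T cell receptor ζ chain) at 1, and Zap70 was without it. C/EBPα was already called at 0 h in the loci of Lyn (3 sites), Plcg2 (2), Inpp5d (4) and Cd247 (1). It was not called at 0 h in the loci of the other genes given here with a number of sites. The loci of Inpp5d and Cd247 are also long, at 140 kb and 129 kb.

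The loci outside the 9 whose reads over the 18 libraries were most like the mean of the 9 loci were Ubap1 (Pearson r = 0.932), Ehd4 (0.926), Ccl6 (0.925), Ccr1l1 (0.917) and Ensa (0.913). The r is over the 18 libraries and is given as a description, since libraries of a factor share an antibody and the time course. Among the 9 themselves r with that mean ran from -0.17 for Trem1 to 0.85 for Fcgr4. Each of the 9 is part of the mean, which raises its r by construction, so these r are not comparable with those of outside loci. Fcgr3 and Trem2 were at 0.33 and 0.35, and the other 5 between 0.69 and 0.81.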

How the data were processed

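C10 cells were profiled by ChIP-seq, with 8 libraries for C/EBPα and 5 each for C/EBPβ and PU.1, 1 per factor and time. The authors aligned reads to mm9, with Bowtie and HOMER named in the submitters' processing notes (versions not given in the sources used here), kept uniquely aligned reads, and deposited lists in which a line is a read and gives where it aligned and on which strand, that is positions and not counts, with no control library. The labels and the methods give different β-Est concentrations, so none is printed.

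Here 1 read was kept per position and strand (2.51% removed from C/EBPα at 3 h, at most 0.188% elsewhere) and left out were, in each PU.1 library, 8859 to 14580 lines on sequences outside the assembled chromosomes and, at 0 h, 1 line with no position. Reads were moved 75 bp inward and counted in 200-bp windows per 10M (10000000 reads). Regions were called by rebuilt HOMER rules (read threshold and window of each library set from the study's own peak calling settings, 4-fold over the surrounding 10 kb, local Poisson p of 1e-04, maxima 2 windows apart). The rules were tried on simulated sites well above the read threshold on an even background. Sites near the threshold were not tried. The regions called here are a rebuild and not the authors' peaks. Called centres within 200 bp formed 1 site. Intervals are exact Poisson, Clopper-Pearson or conditional binomial at 95%; a count of 0 allows 3 reads (1.20 to 5.02 per 10M for C/EBPα, 5.13 to 10.3 for C/EBPβ, 2.64 to 4.56 for PU.1). Positions were compared with the mm9 sequence, from which the printed sequences come, and genes are GENCODE vM1. Symbols missing there were matched through RefSeq synonyms.

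For each gene the 3 sites with the most C/EBPα reads summed over 8 libraries were described, plus the strongest PU.1 site if called at 0 h and never for C/EBPα. Others are named as described after their values were seen. The details of 1 of these sites and some sequences are not reported here. Genes, lists and sites were chosen with earlier results of these data known. Gene expression was not analysed here. Python 3.11.15, NumPy 2.4.6, SciPy 1.17.1, pandas 2.3.3, numba 0.67.0 and pysam 0.24.0 were used.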

Additional observations from a re-analysis of the deposited data

How the results depend on the processing

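Of 74 values recomputed under alternatives, 62 stayed within 1.5 times (counts) or within the 95% interval (shares and ratios), 12 moved and 0 reversed. No paired analysis was possible because each factor and time is 1 library. With a tag threshold 1.5 times higher, sites with C/EBPβ at 48 h numbered 20 in place of 35, and with libraries thinned to the smallest of their factor 16. With a flank of 5 kb the loci held 59 sites in place of 108, 13 in place of 21 with C/EBPα at 48 h, 12 in place of 30 with PU.1 at 0 h and 21 in place of 35 with C/EBPβ at 48 h, and with 50 kb they held 184. The median log2 ratio of 48 h to 0 h with a flank of 5 kb was 0.62 for C/EBPα, 0.86 for C/EBPβ and 0.68 for PU.1, in place of 0.36, 0.44 and 0.42, and with 50 kb that of PU.1 was 0.20. The share of C/EBPα sites of 48 h with PU.1 at 0 h, 28.6%, was 15.4% with a flank of 5 kb and 44.4% with called centres within 500 bp joined. With reads at bound sites only the median log2 ratio was 1.09 for C/EBPα, 2.06 for C/EBPβ (8 loci, since Trem1 had no read in one library) and 0.86 for PU.1. A shorter flank and site windows hold less background by construction, and sites called mostly after induction favour a ratio above 0. The 7 loci with C/EBPα at 48 h were 6 with a flank of 5 kb and 8 with 50 kb. A further 3 kinds of alternative were chosen after seeing the data: PU.1 within 1000 bp (47.6%), leaving out the 3 loci with the fewest unique positions, and counting only sites whose nearest start is that of a member gene (18 in place of 21). With 1 library per time, a difference between libraries and one between times cannot be told apart.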
